A study of Rattus norvegicus with 96 samples.

Results

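The genes described here encode proteins of the mitochondrial ribosome, measured in whole blood of rats that had inhaled crystalline silica or air. Members were the rows of the deposited intensity table whose gene symbol begins with Mrpl or Mrps and a number, with a detection p-value under 0.05 on at least 4 of 96 arrays, and the brightest row was taken for a gene. Symbols of 59 genes met the name condition and 56 of these met the detection condition, among 12306 genes measured in all. By symbol 35 belong to the large and 21 to the small subunit. Mrpl30 was detected on 1 array, and Mrps21 and Mrps31 on 0, so these were left out. Just inside the condition were Mrps10, detected on 25 arrays, and Mrps15, detected on 30, and 46 members were detected on all 96. The symbol Mrps36 is now Kgd4 in RefSeq, a subunit of the alpha-ketoglutarate dehydrogenase complex, and is kept here under the file's symbol because the rule takes it.

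The mitochondrial ribosome translates the few messages of the mitochondrial genome, which encode core subunits of the respiratory chain. All of its proteins are encoded in the nucleus, made on cytosolic ribosomes and imported, whereas its ribosomal RNAs come from mitochondrial DNA. Many of the proteins have bacterial homologues and the others are found in mitochondria alone. In blood these transcripts come from white cells, reticulocytes and platelets, while mature red cells hold no mitochondria.

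The 96 animals were male rats labelled CDF Fisher 344 and 3 months old, exposed for 6 hours a day on 5 days, with 1 array per rat on an Illumina rat BeadChip and globin mRNA removed. Rats given 15 mg/m3 silica were killed 0, 1, 2, 4, 8 or 16 weeks afterwards, 8 a week, with 4 air rats for each of the 6 weeks. Rats given 1 or 2 mg/m3 silica (8 each) and 4 air rats for each dose were killed 16 hours after the last exposure, called week 0 below. Each of the 8 silica groups thus had its own air rats, and the 8 comparisons share no animal. All groups had the same strain, sex and labelled age, and no genetic change is labelled. Whole blood is a mixture of cells, so fewer cells of a type and less RNA per cell cannot be told apart in any of the values below. Blood markers were present: 10 of 13 neutrophil, 8 of 9 T cell, 6 of 7 erythroid and 4 of 4 platelet markers were detected on all 96 arrays, while neutrophil Lcn2 was detected on 1 array, T cell Cd5 on 3 and B cell Pax5 on 0. Arrays detected 7642 to 9970 of 21792 rows. The labels name no chip, but the table's columns fall into runs of 12. Every 15 mg/m3 air rat lies in the first 4 runs with 4 of the 8 silica rats of each week, while the other 4 silica rats a week and all rats of the 1 and 2 mg/m3 sets lie in the last 4 runs.

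Sequence around the gene starts was read first, since the members are genes that share a function but lie on many chromosomes. RefSeq promoters of build GRCr8, from 250 bases before to 50 after a start site, were found for 46 of the 56 members. In 23 of the 46 the start used by the table lies inside the gene's annotated span rather than at its end, by 232 bases in Mrps30. The letters AAGATGGC, the core of the motif bound by YY1, a zinc-finger factor known for its sites in genes of mitochondrial function, were searched on both strands. They stood in 14 of the 46 (30.4%), against 5.3% of 8451 promoters of genes tested here and 3.44% of all 27457 rat promoters. The same letters stood in 16.7% of 54 promoters of respiratory chain genes and in 10.6% of 47 promoters of cytosolic ribosomal protein genes. Of the 14 matches 12 read in the direction of the gene, and 11 begin within the first 50 bases after the start site. This placement was held by 23.9% of the members' promoters and 2.51% of those of tested genes. It was held by 9.26% of respiratory chain and 4.26% of cytosolic ribosomal protein promoters. The letters contain ATG, and whether they hold the start codon was not examined. CCGGAAG, a core of ETS-family sites, stood on either strand in 30.4% of the members' promoters against 16.5% of those of tested genes. GCGCATGC, the core of the NRF1 site, stood in 10.9% against 4.65%. Respiratory chain promoters held the ETS letters in 29.6% and the NRF1 letters in 18.5%. For cytosolic ribosomal protein promoters the shares were 29.8% and 4.26%. Neither the ETS nor the NRF1 share was thus particular to the members. The ETS and YY1 letters overlapped in 0 members. A match describes letters only, and binding was not measured.

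The 14 matches are shown so that the place and surroundings of the shared letters can be compared. Each line gives the gene, the position of the window on build GRCr8 and its strand, with the YY1 letters or their reverse complement in capitals and up to 16 bases on each side.
Mrpl32, chr17:55260415-55260454, plus strand: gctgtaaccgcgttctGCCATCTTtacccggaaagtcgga
Mrpl36, chr1:31795114-31795153, minus strand: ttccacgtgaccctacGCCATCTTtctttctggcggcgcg
Mrpl37, chr5:127074938-127074977, minus strand: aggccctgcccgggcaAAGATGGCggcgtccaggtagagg
Mrpl42, chr7:32028480-32028519, minus strand: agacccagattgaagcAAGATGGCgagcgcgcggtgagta
Mrpl46, chr1:142116983-142117022, minus strand: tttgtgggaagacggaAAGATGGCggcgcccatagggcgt
Mrpl48, chr1:164351530-164351569, minus strand: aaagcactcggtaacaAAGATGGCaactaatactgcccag
Mrpl49, chr1:212779288-212779327, minus strand: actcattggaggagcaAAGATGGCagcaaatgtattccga
Mrpl50, chr5:68668038-68668077, minus strand: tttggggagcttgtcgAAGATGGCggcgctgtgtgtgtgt
Mrps10, chr9:21122404-21122439, minus strand: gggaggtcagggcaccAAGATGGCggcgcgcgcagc
Mrps18a, chr9:22367357-22367396, minus strand: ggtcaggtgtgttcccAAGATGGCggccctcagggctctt
Mrps18b, chr20:2843018-2843055, plus strand: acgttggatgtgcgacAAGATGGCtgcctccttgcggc
Mrps27, chr2:32474217-32474253, plus strand: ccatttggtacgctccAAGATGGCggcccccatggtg
Mrps30, chr2:52195863-52195902, minus strand: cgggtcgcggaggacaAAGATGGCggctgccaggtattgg
Mrps7, chr10:101342632-101342671, plus strand: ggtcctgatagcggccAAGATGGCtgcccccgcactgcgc
In 11 windows the capitals lie just after the start site, and in Mrpl32 and Mrpl36 they read against the gene. In Mrpl48 they lie upstream of the start used, but that start is 18658 bases inside the annotated gene span, so the letters lie within the gene, as they do in Mrpl36, whose start is 2325 bases inside.

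Whole promoters follow for 3 members that the results below turn on. Mrpl54 had the largest fold difference from air of the members called 16 weeks after silica and held none of the 3 motifs, Mrps30 was called in that comparison and held the YY1 letters, and Mrpl37 varied most over the weeks in air rats and held them too. Capitals mark the motif letters.
Mrpl54, chr7:9103275-9103574, plus strand: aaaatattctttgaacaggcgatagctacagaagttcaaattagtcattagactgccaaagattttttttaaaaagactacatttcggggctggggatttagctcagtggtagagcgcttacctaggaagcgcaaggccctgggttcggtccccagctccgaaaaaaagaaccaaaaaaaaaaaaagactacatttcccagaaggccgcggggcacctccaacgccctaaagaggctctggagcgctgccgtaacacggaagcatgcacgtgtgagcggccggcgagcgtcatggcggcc
Mrps30, chr2:52195855-52196154, minus strand: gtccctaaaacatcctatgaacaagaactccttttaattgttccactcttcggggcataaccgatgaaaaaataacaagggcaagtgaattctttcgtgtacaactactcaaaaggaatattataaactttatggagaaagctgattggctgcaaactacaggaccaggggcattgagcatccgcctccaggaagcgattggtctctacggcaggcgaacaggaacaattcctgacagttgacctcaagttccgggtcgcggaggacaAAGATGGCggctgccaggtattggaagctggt
Mrpl37, chr5:127074918-127075217, minus strand: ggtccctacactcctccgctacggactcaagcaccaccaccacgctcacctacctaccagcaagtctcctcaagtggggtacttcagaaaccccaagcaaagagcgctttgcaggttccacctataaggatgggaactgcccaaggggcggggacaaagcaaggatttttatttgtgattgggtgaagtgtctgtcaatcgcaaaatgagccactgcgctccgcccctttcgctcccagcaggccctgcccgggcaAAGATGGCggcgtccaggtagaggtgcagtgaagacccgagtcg
Both YY1 matches lie a few bases after the start site, which follows base 250 of each line. Of the 7 members called at week 16, 5 had a promoter in the table and 1 of these held the YY1 letters. Among the 25 members that varied over the weeks in air rats 8 of 19 promoters held them, and among the other 31 members 6 of 27 did.

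Most members were readily detected in blood RNA. Mean normalised log2 intensity of a member over the 96 arrays ran from 5.05 for Mrps10 to 11.05 for Mrpl53, next to which came Mrps15 at 5.11 and Mrpl14 at 5.2, and Mrpl37 at 10.2 and Mrpl52 at 10.02, with a median of 7.96 against 6 for all genes. Brightness also depends on the probe, so the order of members by signal is not an order of transcript levels. The SD between rats of a group had a median of 0.16 (log2) over the members and 0.163 over all genes. It was lowest for Mrps17, at 0.083, and highest for Mrps25, at 0.471, followed by Mrpl17 at 0.252 and Mrpl35 at 0.233. Mrps25, a small-subunit protein found only in mitochondria, ran from 6.8 to 9.47 over the 96 rats, with 1 rat apart at the top and the next at 8.93. Within groups the members moved together only weakly. Pearson's correlation of a member with the mean of the other 55 over 96 rats, after group means were taken out, had a median of 0.18 and ran from -0.12 to 0.62 for Mrpl22. With the column run taken out as well the median was 0.2. The rats share array normalisation, and 18 of 56 members lay above the 95th percentile (0.32) of the same correlation for all other genes.

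**Figure D1:**
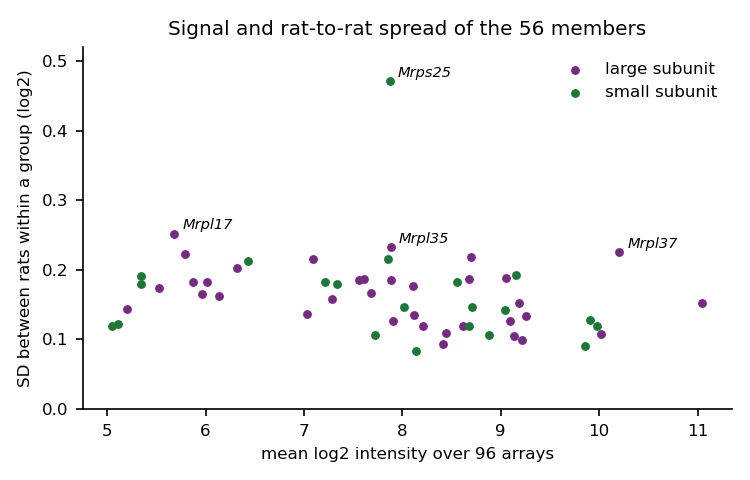
Mean log2 intensity over 96 arrays (horizontal) and SD between rats within a group (vertical, log2) for each of the 56 members, coloured by the subunit in the gene's symbol. Mrps25 stands apart at an SD of 0.471, and the other 55 members lie at 0.252 or below.

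The first question was whether silica changed these genes in blood, and when. Genes were called where limma's moderated t-statistic, fitted over all 96 arrays, gave a Benjamini-Hochberg adjusted p under 0.05 over 12306 genes. In 7 of 8 comparisons 0 of 56 members were called, each comparison having 4 air and 8 silica arrays. At week 16 after 15 mg/m3, 7 members were lower in silica rats and 0 higher (12.5% of members; 0 called when arrays were scaled to their medians), where 4.78% of all genes were called in either direction and 1.7% were called lower. The background in the other comparisons was small as well: 0.0163% of genes were called at week 0 of 15 mg/m3, 0.39% at week 1, 0.0325% at week 2, 0.122% at week 4, 0.268% at week 8, and 0% at 1 and at 2 mg/m3. At an unadjusted p under 0.05 the members numbered 6, 6, 2, 1 and 4 at weeks 0, 1, 2, 4 and 8, which is 10.7, 10.7, 3.57, 1.79 and 7.14% of them beside 9.08, 11.2, 9.09, 9.39 and 9.24% of all genes. They numbered 0 at 1 mg/m3, beside 2.54% of all genes, and 4 at 2 mg/m3 (7.14% beside 4.71%). At week 16 they numbered 19, or 33.9% beside 18.3%. The median SE of a member's log2 difference in the 15 mg/m3 comparisons was 0.1, and a difference had to be several times its SE to be called. Mrpl43 at week 0 of 15 mg/m3, at -0.37 ± 0.08 (SE), was not called by the moderated t-test (adjusted p = 0.0865). Counts of 0 therefore do not exclude differences of this size or smaller.

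**Figure D2:**
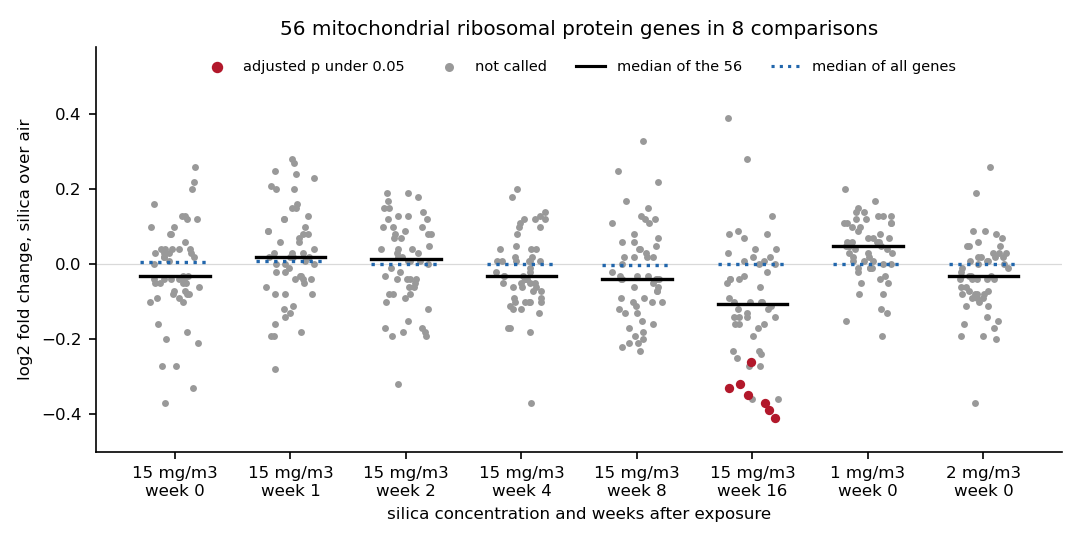
Log2 fold change of silica over air rats for each of the 56 members (points) in the 8 comparisons, with the median of the members (black line) and of all genes (blue dotted line); red points passed an adjusted p under 0.05. At week 16 the members' median is -0.11 against 0.001 for all genes, and the 7 red points all lie below -0.25; with arrays scaled to their medians no point was called there and the members' median was 0.095 beside 0.107 for all genes.

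At week 16 most members lay below their air rats: 41 of 56 had a log2 difference below 0 (73.2%, against 49.9% of all genes), with a median of -0.11 against 0.001. A lean to one side was not particular to that week. At 1 mg/m3, with 0 called, 16 of 56 members were below 0 (28.6%, against 50.2% of all genes), with a median of 0.053 against 0. By symbol the large subunit had 4 of 35 called lower at week 16 (median -0.102) and the small subunit 3 of 21 (median -0.125). Of members with a bacterial homologue 2 of 30 were called, and of those found only in mitochondria 5 of 25, with medians of -0.103 and -0.126. When arrays were scaled to a common median in place of quantile normalisation, 0 members and 108 of all genes were called, 1 of the latter lower. The median difference of the members was then 0.095 beside 0.107 for all genes, so that the members' median lay 0.012 below that of all genes and 31 of 56 members lay below it. The shift of the members as a group relative to all genes thus depended on the scaling, at -0.11 under quantile normalisation and -0.012 under median scaling. Among the 4 silica and 4 air rats in the first 4 column runs the median was -0.12. There 43 of 56 members were below 0 and 2 were called, beside 184 of all genes. With the run as a block in the full fit 10 were called, all lower, beside 686 of all genes, 260 of them lower. Without the block 588 of all genes were called, 209 of them lower. Of the 10 members 6 were also called without the block. Mrps34, called without the block, was not called with it (adjusted p = 0.0748). Leaving out air rat 3 or air rat 4 left 2 members called, beside 318 and 214 of all genes. Leaving out silica rat 3 gave 11, beside 670 of all genes.

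Mrps35, a small-subunit protein found only in mitochondria, had the smallest p of the 7. Its log2 intensity was 7.95, 7.93, 7.75 and 7.99 in the 4 air rats, and ran from 7.37 through a median of 7.64 to 7.76 in the 8 silica rats. Of the silica rats 7 lay below the lowest air rat and the last just above it. The difference was -0.32 ± 0.07 (SE), 0.8-fold, with an adjusted p of 0.00118.

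The largest difference belonged to Mrpl54, a large-subunit protein found only in mitochondria. Air rats had 8.3, 8.14, 8.4 and 8.32, and silica rats 7.64 to 8.04 with a median of 7.88. The groups did not overlap, as all 8 silica rats lay below all 4 air rats. Here and below, separation is described in members named for their low p. The share of all genes so separated is not given, so separation is no further evidence. The log2 difference was -0.41 ± 0.11 (SE), 0.752-fold, with an adjusted p of 0.0117. Mrpl52, another such large-subunit protein, was likewise separated, with 10.07, 9.9, 10.1 and 10.02 in air rats and 9.58 to 9.88 (median 9.75) in silica rats. Its difference was -0.26 ± 0.07 with an adjusted p of 0.0139, and under median scaling it was 0.05, which is -0.06 relative to all genes.

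Mrpl23 and Mrpl27 are large-subunit proteins with bacterial homologues: the first lines the exit of the peptide tunnel, and the bacterial homologue of the second reaches towards the peptidyl transferase centre. Mrpl23 was 7.79, 7.65, 8.04 and 7.99 in air rats and 7.27 to 7.69 (median 7.48) in silica rats, 6 of which lay below every air rat. It differed by -0.39 ± 0.11 (adjusted p = 0.0261). Mrpl27 was 9.21, 9.44, 9.57 and 9.61 in air rats and 8.68 to 9.41 (median 9.09) in silica rats, and again 6 of 8 lay below the lowest air rat. Its difference was -0.37 ± 0.11 (adjusted p = 0.0387).

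Mrps30 carries a small-subunit symbol, although structures of mammalian mitochondrial ribosomes place it in the large subunit. Air rats had 9.29, 9.17, 8.99 and 9.1, and silica rats 8.6 to 9.09 with a median of 8.77, so that 2 silica rats reached into the air range. The difference was -0.33 ± 0.09 (adjusted p = 0.0123). Mrps34, a small-subunit protein found only in mitochondria, was close to the threshold, at -0.35 ± 0.11 with an adjusted p of 0.0497. Its air rats had 7.28, 7.18, 7.03 and 7.34, and its silica rats ran from 6.48 to 7.32 with a median of 6.86. One silica rat almost reached the highest air rat, and 6 lay below the lowest.

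Among the 4 silica and 4 air rats of the first 4 runs the differences of these genes were -0.34 for Mrps35, -0.35 for Mrpl54, -0.34 for Mrps30, -0.18 for Mrpl52, -0.38 for Mrpl23, -0.32 for Mrpl27 and -0.28 for Mrps34, of which Mrps35 was called (adjusted p = 0.0215). Under median scaling the adjusted p of the 7 was 0.782 or more, and the differences lay between -0.14 for Mrpl54 and 0.05 for Mrpl52, or -0.25 and -0.06 relative to all genes. Leaving out 1 rat at a time, Mrps35 passed in 12 of 12 cases, Mrps30 in 11, Mrpl54 in 10, Mrpl23 and Mrpl52 in 9, Mrpl27 in 6 and Mrps34 in 3. The 2 highest members at week 16 were Mrpl1, at 0.39 ± 0.13 (adjusted p = 0.0683), and Mrpl50, at 0.28 ± 0.1 (adjusted p = 0.0845), and neither passed the test.

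**Figure D3:**
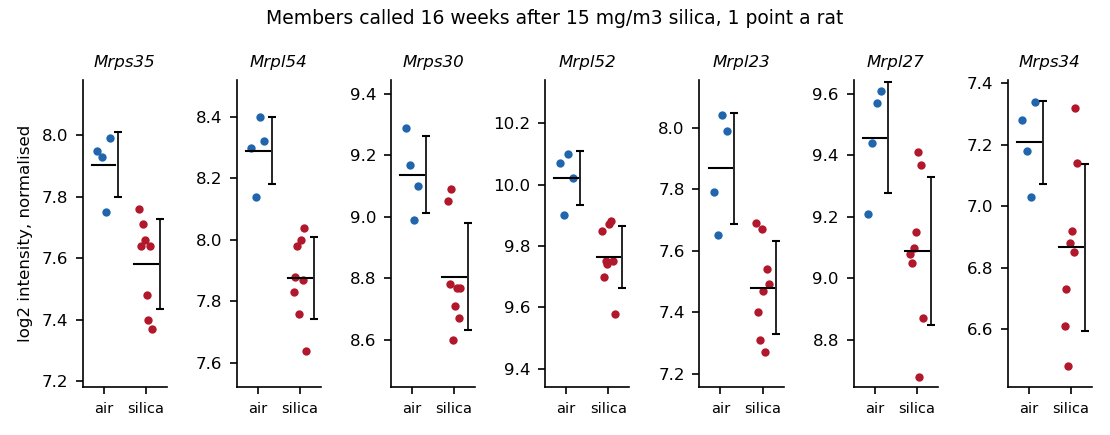
Normalised log2 intensity of the 7 members called 16 weeks after 15 mg/m3 silica, 1 point per rat (4 air, 8 silica), with the group mean (line) and SD (bar); every panel spans 1 log2 unit. The groups do not overlap in Mrpl54 and Mrpl52, and in the other panels 1 or 2 silica rats reach the air range; with arrays scaled to their medians none was called, and relative to all genes the 7 lay between -0.25 and -0.06.

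Structural groups of the ribosome held few calls each. Of 4 members around the exit of the peptide tunnel, where new proteins meet the inner membrane, 1 was called (Mrpl23) and the median was -0.275. Mrpl44, a large-subunit protein of this region, was -0.36 ± 0.12 with an adjusted p of 0.0696. In the central protuberance, which faces the small subunit, 1 of 5 was called (Mrpl27), with a median of -0.036. The head and decoding region of the small subunit had 1 of 6 called (Mrps35), with a median of -0.115, and Mrpl53, from the base of the stalk that receives translation factors, was -0.27 ± 0.09 (adjusted p = 0.0727). The 3 paralogs of bacterial S18, of which Mrps18a lies in the large subunit, were -0.05, -0.1 and -0.1 for Mrps18a, Mrps18b and Mrps18c, and 0 of 3 were called.

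The other genes of mitochondrial translation were read from lists beside the members. None of 14 translation factor genes and none of 24 ribosome assembly genes was called at week 16, with medians of -0.069 and 0.012; at an unadjusted p under 0.05 there were 2 and 5. The assembly gene of lowest p was Dhx30, a helicase of mitochondrial RNA granules, at -0.36 ± 0.12 (adjusted p = 0.0546). Among 11 genes of aminoacyl-tRNA synthetases that serve mitochondria 2 fell, Kars1 by 0.41 (adjusted p = 0.00553) and Gars1 by 0.26 (adjusted p = 0.0452), on the log2 scale. Both enzymes also charge tRNA in the cytosol. None of 10 genes of mitochondrial DNA transcription and replication was called (1 at an unadjusted p under 0.05).

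This ribosome makes the mitochondrially encoded partners of many respiratory chain proteins. The respiratory chain list was taken by symbol and holds some pseudogene and related symbols, such as Ndufs6-ps1 and Ndufa10l1. In it 4 of 68 were called lower and 0 higher at week 16 (5.88%, beside the 4.78% of all genes). The list's median was -0.098, and 56 of 68 were below 0. The 4 were Uqcrc1 of complex III, at -0.29, and the complex I genes Ndufv1, Ndufs8 and Ndufb7, at -0.32, -0.24 and -0.52. Cytosolic ribosomal protein genes had 2 of 63 called lower, Rpl13a at -0.35 and Rpl13 at -0.3, with a median of -0.021 and 36 of 63 below 0. Differences between these lists were not tested.

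Cell markers also moved at week 16. Of 12 measured neutrophil markers 9 rose and 0 fell, with a median of 0.674, and the mean of the 12 per rat was 8.56 to 8.91 in air rats and 9.16 to 9.8 in silica rats. Mmp8, a neutrophil collagenase, rose by 1.1 and S100a8, a calcium-binding protein of neutrophils, by 0.69 (log2). T cell markers had a median of -0.062 with 0 of 8 called (1 at an unadjusted p under 0.05), B cell markers -0.094 with 0 of 5 (1), and platelet markers -0.185 with 0 of 4 (1). Of 6 NK cell markers 1 rose, the receptor gene Klrb1b, by 0.74 (adjusted p = 0.000373), and the list's median was -0.042. Monocyte markers had 0 of 5 called (0) with a median of -0.01, and erythroid markers 0 of 7 (1) with a median of 0.023. The mean of the 56 members per rat was 7.79 to 7.86 in air rats and 7.65 to 7.77 in silica rats. At week 8 the neutrophil markers had a median of 0.619 with 5 of 12 called higher, while the members' median was -0.037 with 0 called. The number of detected rows was 8336 to 9277 in air rats and 8515 to 9560 in silica rats at week 16. With it as a covariate 6 members, of which 4 are among the 7 above, and 511 of all genes were called. The part of the neutrophil rise in the members' difference was not tested.

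**Figure D4:**
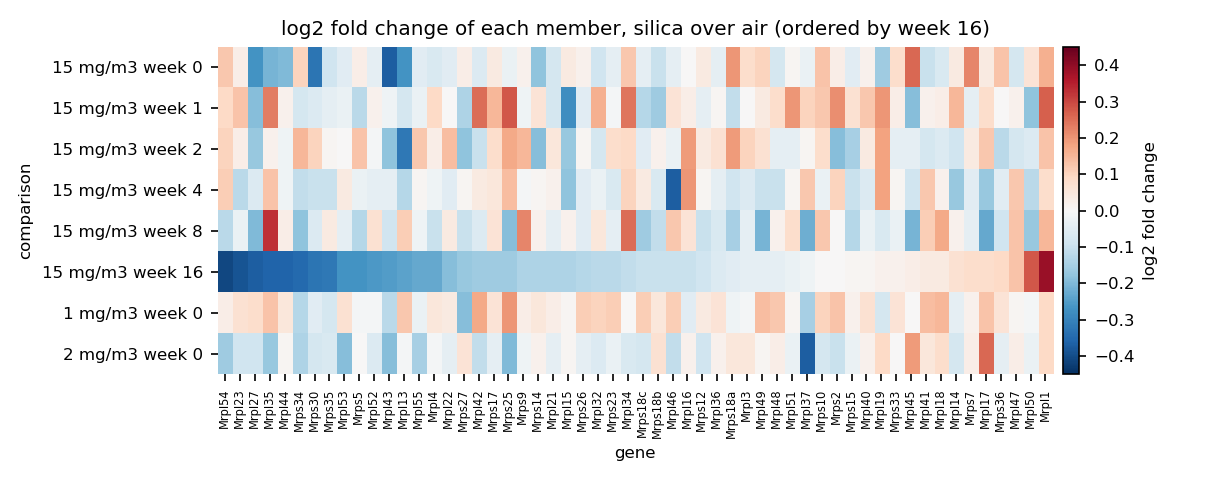
Log2 fold change of silica over air rats for the 56 members (columns, ordered by the week 16 value) in the 8 comparisons (rows). Members were called in the week 16 row alone, where Mrpl54 is lowest at -0.41 and Mrpl1 highest at 0.39.

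In the earlier weeks of 15 mg/m3 no member passed the test, and few members were among the 3 of lowest p in more than 1 week: Mrpl34 (weeks 1 and 8), Mrpl43 (weeks 0 and 2) and Mrpl15 (weeks 1 and 4). At week 0 the lowest p was that of Mrpl43, a large-subunit protein found only in mitochondria: air rats had 9.64, 9.3, 9.56 and 9.44, and silica rats 8.84 to 9.34 with a median of 9.18. Of the silica rats 6 lay below every air rat, and the difference was -0.37 ± 0.08 with an adjusted p of 0.0865. It passed with the column run as a block (16 of all genes called) and under the stock background correction (4 of all genes called), as the 1 member called there. Without air rat 2 of that week 2 members were called, beside 32 of all genes. Without silica rat 4 or silica rat 5 1 was, beside 3 and 4 of all genes. Mrps30 (-0.33 ± 0.09, adjusted p = 0.189) and Mrps7, of the head of the small subunit (0.22 ± 0.07, adjusted p = 0.29), came next at week 0. At week 1 the lowest p belonged to Mrpl34, a large-subunit protein with a bacterial homologue, at 0.24 ± 0.07 (adjusted p = 0.105), followed by Mrpl15 at -0.28 ± 0.1 and Mrps17 at 0.15 ± 0.05. All 8 silica rats lay below all air rats for Mrpl15 at that week, with 5.8 to 6.08 against 6.17 to 6.31, but its adjusted p was 0.228. Without air rat 2 of that week 1 member was called, beside 111 of all genes.

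At week 2 Mrpl13 was -0.32 ± 0.11 (adjusted p = 0.32), Mrpl43 -0.18 ± 0.08 and Mrps15 -0.15 ± 0.08, the last detected on 1 of 4 air and 1 of 8 silica arrays. Week 4 had Mrpl46 of the central protuberance at -0.37 ± 0.11 (adjusted p = 0.153), Mrpl15 at -0.18 ± 0.1 and Mrpl14 at -0.17 ± 0.09. Mrpl34 returned at week 8, with 8.31, 8.25, 8.28 and 8.35 in air rats and 8.36 to 8.68 (median 8.54) in silica rats. Every silica rat was above every air rat, by as little as 0.01, and the difference was 0.25 ± 0.07 (adjusted p = 0.092). Mrpl35 (0.33 ± 0.14) and Mrpl49 (-0.21 ± 0.1) followed, with adjusted p-values of 0.402 and 0.466.

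At 1 mg/m3 the members lay between -0.19 and 0.2, with Mrpl18 at 0.15 ± 0.09, Mrpl49 at 0.14 ± 0.1 and Mrps27 at -0.19 ± 0.13, all at an adjusted p of 1. At 2 mg/m3 they lay between -0.37 and 0.26, the same range as at week 0 of 15 mg/m3, and Mrpl37 was lowest, at -0.37 ± 0.14 (adjusted p = 0.908). Its air rats had 10.37, 10.19, 10.27 and 10.89 and its silica rats 9.79 to 10.34, a range that overlaps. Mrpl43 and Mrpl53 were both at -0.19, with adjusted p-values of 1.

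Whether the silica effect itself differed between weeks or doses was tested directly. The moderated F test over 6 weeks called 0 of 56 members (0.146% of all genes), with 15 members and 1316 of 12306 genes at an unadjusted p under 0.05, and the lowest adjusted p-values were 0.211 for Mrpl54, 0.247 for Mrps30 and 0.248 for Mrps35. Week 16 minus week 0 called 0 members and 0% of all genes, with 8 members and 763 of 12306 genes at an unadjusted p under 0.05. The lowest p belonged to Mrpl54, whose silica difference at week 16 minus that at week 0 was -0.53 ± 0.15 (adjusted p = 0.358), followed by Mrps34 at -0.44 ± 0.16 (adjusted p = 0.634) and Mrpl23 at -0.42 ± 0.16 (adjusted p = 0.662). Over the 3 doses at week 0 the F test called 0 members and 0% of genes, with 0 members and 350 genes at an unadjusted p under 0.05. The calls at week 16 are therefore not shown to set that week apart from the others.

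More members were called over the weeks in air rats than in any silica comparison. Among the 24 air rats kept with the 15 mg/m3 rats, a moderated F test over the 6 weeks called 25 of 56 members (44.6%), beside 31% of all genes, 47.1% of 68 respiratory chain genes and 33.3% of 63 cytosolic ribosomal protein genes. The share of all genes depends on the detection filter, and most members were detected on all arrays. Among genes detected on 48 or more arrays, 27 members and 42% of all genes were called. Of the 25, 14 were of the large and 11 of the small subunit, and 15 of 25 members found only in mitochondria were called against 9 of 30 with bacterial homologues, a difference that was not tested. Air rats of each week lie in the same 4 column runs, and the labels give no date, so that time after exposure and anything else that goes with the week cannot be told apart. With median scaling in place of quantile normalisation 0 members and 0.715% of all genes were called.

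Mrpl37, a large-subunit protein found only in mitochondria, varied most, with an adjusted p of 8.67e-08. Air rats had 9.2, 10.18, 9.47 and 9.79 at week 0, 9.8, 10.18, 9.94 and 9.65 at week 1, and 9.87, 10.07, 10.04 and 10.41 at week 2. They had 10.74, 10.96, 10.48 and 10.49 at week 4, 10.6, 10.37, 10.68 and 10.37 at week 8, and 10.5, 10.61, 10.63 and 10.68 at week 16. Every rat of week 4 and week 16 lay above every rat of weeks 0, 1 and 2. The silica rats, which are other animals, had means of 9.63, 9.99, 10.11, 10.79, 10.29 and 10.58 in the same order of weeks, beside 9.66, 9.89, 10.1, 10.67, 10.51 and 10.61 in air rats.

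Mrps36 and Mrps7 had another course, highest at weeks 1 and 2. Mrps36 (Kgd4) averaged 8.67, 9.09, 9.18, 8.86, 8.78 and 8.79 in air rats at weeks 0, 1, 2, 4, 8 and 16 (SD between 0.03 and 0.15, 4 rats each), with an adjusted p of 2.2e-07. Mrps7, which binds ribosomal RNA in the head of the small subunit, averaged 8.38, 8.94, 8.81, 8.64, 8.49 and 8.51 (SD between 0.02 and 0.21), with an adjusted p of 4.04e-07. For both genes all rats of weeks 1 and 2 lay above all rats of week 8. Silica rats averaged 8.79, 9.09, 9.06, 8.82, 8.69 and 8.88 for Mrps36, and 8.6, 8.89, 8.85, 8.6, 8.45 and 8.59 for Mrps7.

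Over the 25 called members the range of the 6 air means was 0.27 to 1.01 (median 0.46). The highest week in air rats was week 1 for 8 of them, week 2 for 7, week 0 for 4 and weeks 4 and 16 for 3 each, and the lowest was week 0 for 10. Silica rats had the same highest week in 15 of 25 and the same lowest week in 11. Pearson's correlation between the 6 air and the 6 silica means of a member had a median of 0.78 over the 25 (0.2 to 0.98) and 0.57 over the other 31, beside 0.81 for all genes called over the weeks and 0.4 for the rest. Air and silica rats of a week share whatever goes with that week, so the correlations are a description. T cell markers also varied over these weeks, with 7 of 8 called and a mean per rat of 9.57 to 9.73 at week 16 and 9.83 to 10.2 at week 0, and 6 of 12 neutrophil markers were called. Their part in the members' course was not tested.

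**Figure D5:**
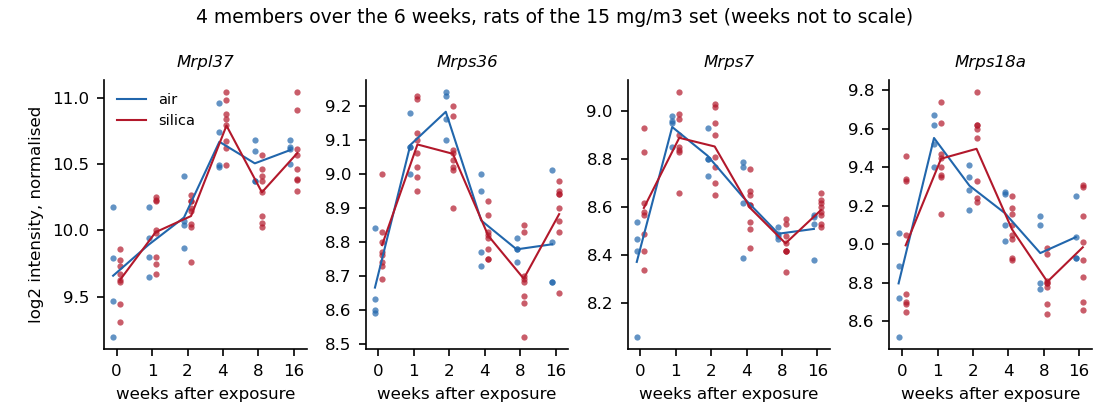
Normalised log2 intensity of Mrpl37, Mrps36, Mrps7 and Mrps18a in air rats (blue, 4 a week) and silica rats (red, 8 a week) of the 15 mg/m3 set against the week after exposure, 1 point per rat, with lines through the group means; the weeks are evenly spaced and each panel has its own scale. Mrpl37 is highest at week 4 in both kinds of rat, and the other 3 genes are highest at week 1 or 2.

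Air rats of the 3 sets killed at week 0 differed too. The F test called 12 of 56 members (21.4%), beside 11.7% of all genes, 7 of the large and 5 of the small subunit. Among genes detected on 48 or more arrays it called 12 members and 17% of all genes. Mrps7 had 8.47, 8.42, 8.54 and 8.06 in the 15 mg/m3 set, 8.79, 8.81, 8.73 and 8.89 in the 1 mg/m3 set and 8.84, 8.74, 8.53 and 8.74 in the 2 mg/m3 set (adjusted p = 0.000407). In this gene the 1 mg/m3 air rats all lay above the 15 mg/m3 ones. Mrps30 averaged 9.46, 9.06 and 9 in the 15, 1 and 2 mg/m3 sets (adjusted p = 0.000821), and Mrpl37 averaged 9.66, 10.08 and 10.43 (adjusted p = 0.00102). The 15 mg/m3 air rats lie in the first 4 column runs and the others in the last 4, so these air rats alone cannot separate set from run. In the fit of all arrays with the run as a block, where the 15 mg/m3 silica rats, which lie in all 8 runs, set the run term, 12 members and 14% of all genes were called. Without air rat 3 of the 15 mg/m3 set 6 members were called, and without air rat 4 of that set 7. The share of all genes called without these rats is not given, so a general loss of calls cannot be told apart. Under median scaling 0 members and 0.553% of all genes were called.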

How the data were processed

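Probe intensity per array and a detection p-value were deposited by the authors, per the file headers; the submitters' processing notes name BeadStudio, limma and lumi without versions. The authors also deposited normalized log2 values, which served as an alternative only. Of the per-sample columns 192 were not used. Intensities were background-corrected by normexp with an offset of 16, with the background inferred from detection p-values (626 rows off their grid of 825 steps were left out of that estimate), quantile normalized and taken to log2 (R 4.3.3, limma 3.58.1, data.table at version 1.17.8). The detection condition (p under 0.05, 4 arrays or more) left 12368 of 21792 rows. Group means were fitted in limma over 96 arrays, and p-values were adjusted by Benjamini-Hochberg over 12306 genes. The fit was tested on simulated data.

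Named genes are the members called in a silica comparison, the 3 of lowest p in each comparison and each F test, the 3 of highest and lowest signal and of largest spread, and up to 4 genes a list. Members and lists were chosen with earlier results of these data known. Rats are the replicates, and their number limits the precision. Alternatives changed the background, scaling, detection filter, samples, blocks, covariates and weights, and left out each array.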

Additional observations from a re-analysis of the deposited data

Results flagged for a closer look

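Of 112 sets of values examined (the mean of the members in each of 16 groups and the named members in the groups that name them), 1 held a rat far from the others, and chance marks about 1 group in 20. Mrps36 was 8.84 in air rat 1 at week 0 of the 15 mg/m3 set, where the other 3 air rats lay between 8.59 and 8.63.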

How the results depend on the processing

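Median scaling in place of quantile normalisation moved most values. The members' median became 0.119, 0.105, 0.019, 0.122 and 0.095 at weeks 0, 2, 4, 8 and 16 of 15 mg/m3, 0.302 at 1 mg/m3 and 0.086 at 2 mg/m3, while the median of all genes was between 0.035 and 0.125. The called members numbered 0 at week 16, 0 over the weeks in air rats and 0 between the air sets, and Mrpl52 at week 16 became 0.05, or -0.06 relative to all genes. At week 16 the authors' deposited values called 13 members (12 lower, 7 shared with the 7 reported) with a median of -0.072, stock background correction gave 7 with a median of -0.043, of which 5 were shared, the first 4 column runs gave 2, and the 12 arrays of the comparison alone gave 1, Mrpl54. In the same order 693, 657, 184 and 62 of all genes were called. At week 0, 1 member was called with stock background correction and 1 with the run as a block, and at week 8 1 with array weights. Beside these 4, 16 and 70 of all genes were called. Taking members by current RefSeq name, chosen after seeing the data, gave a median of 0.007 at week 0. The other alternatives that keep all arrays left these counts within 1.5 times and the medians within 1 SD of the members' mean between silica rats. Leaving out 1 array at a time gave 0 to 2 members at week 0 and 0 to 1 at week 1. At week 16 it gave 2 to 11. In these fits 0 to 32, 21 to 111 and 214 to 714 of all genes were called. Over the weeks in air rats 20 to 28 members were called, and between the air sets 6 to 16. For those F tests the counts of all genes are not given. The members' medians ran from -0.044 to -0.001 at week 0 and from -0.056 to -0.006 at week 8. Replicate numbers do not pair the rats: of 32 pairs of same-numbered groups 6 correlated above 0.1 (-0.32 to 0.27). With the replicate block 6 members were called at week 16, of which 5 were shared, beside 531 of all genes. Signal near background limits Mrps10, Mrps15 and Mrpl14 most.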

Other observations

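Only 1 member, Mrpl43, lay below air in all 8 comparisons, at -0.37, -0.02, -0.18, -0.04, -0.09 and -0.25 in the 6 weeks of 15 mg/m3 and -0.12 and -0.19 at 1 and 2 mg/m3 (log2, SE 0.08 each), and 3.08% of all genes did so. Mrpl1, of the stalk of the large subunit that leads spent tRNA away in bacteria, was the 1 member above air in all 8, from 0.08 at week 4 to 0.39 at week 16 (SE 0.13 each), as were 3.49% of all genes. Both were picked after their values were seen, and neither passed an adjusted p under 0.05 in any comparison. Under median scaling Mrpl1 stayed above air in all 8, by 0.14 to 0.69, and by 0.11 to 0.58 relative to all genes, whereas Mrpl43 lay between -0.22 and 0.06 relative to all genes and was above them at weeks 1, 4 and 8 and at 1 mg/m3.

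Mrps25, the member of widest spread, had r = 0.22 with the mean of the other members (0.1 with the run taken out). Over 96 rats, with group means taken out, its values were most like those of Sh3rf3 (r = 0.93), LOC365869 (0.92) and Tuba3b (0.9), and 7 genes had r over 0.8. Of the members Mrps14 was closest in size, at -0.64. All these values share the arrays and their normalisation, so they are given as a description.

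Another 8 genes have a name of the Mrpl or Mrps form, in either letter case, but are not taken by the name rule. Genes with names of another form, such as Dap3 of the assembly list, are not among them. At week 16, 0 of these 8 were called and 5 were below 0, with a median of -0.059. By the moderated t-test 2 of them had an unadjusted p under 0.05, Mrpl28 at -0.27 and Mrpl58 at -0.25. Their adjusted p-values were 0.0686 and 0.167. Mrpl58 is the gene of a peptide release factor of the mitochondrial ribosome.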
